A study of Rattus norvegicus with 6 samples.

Results

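Cdkl3 and Grifin were the genes whose probes were called down-regulated against the sedentary pool of rat hippocampus at both running intensities. The members were chosen by gene name, and those names had been selected on the ratios against the sedentary pool, so these ratios are given as a description with no test. They are 2 of 35581 gene names on the array, and each had 1 probe of the 41012, printed as 1 spot. No other probe carried an accession of either gene (1 probe for Cdkl3 and 1 for Grifin).

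Hippocampal RNA of male Wistar rats was compared on 6 two-colour arrays. The rats were 11 weeks old at the start and belonged to 3 groups. CONT rats stayed at rest on the treadmill. ME rats (mild exercise, below the lactate threshold) trained at 15 m/min and IE rats (intense exercise, above it) at 40 m/min. Both exercise groups ran for 60 min a day, 5 times a week, over 6 weeks in total. Those weeks included a habituation to running, which was longer for IE than for ME rats. The labels place tissue collection 24 or 36 h after the last run, while the methods give a longer interval. All running was forced, with brief foot shocks during habituation and, for some IE rats, afterwards. Each group was 1 pool of RNA from 5 rats, hybridised in 2 arrays per comparison with Cy3 and Cy5 exchanged. The arrays of a pair are therefore repeat measurements of the same pools, the SD given below is the spread between 2 arrays, and the spread between rats was not measured. The labels number the arrays of a pair as pools, whereas the methods describe a single pool per group, and the methods were followed here. ME vs CONT and IE vs CONT lay on 1 slide and shared the CONT pool, while IE vs ME lay on another slide, used no CONT RNA and was not used to choose the genes.

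Cdkl3 encodes a cyclin-dependent kinase-like serine/threonine kinase. The CDKL kinases are related in sequence to the cyclin-dependent kinases and the MAP kinases, and Cdkl3 is known from neurons for its part in the growth of axons and dendrites. Grifin, the galectin-related inter-fibre protein, belongs to the galectins, a family of sugar-binding proteins with a common fold. It was described as an abundant soluble protein of lens fibre cells and lacks the lactose binding of other galectins. In bulk tissue, fewer cells of a type and less RNA per cell cannot be told apart.

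The sequences below are the array probes behind every value of the 2 genes, written 5′ to 3′ as the array design gives them. No part is set in capitals, since the whole probe makes the measurement.
Cdkl3, probe A_42_P756350: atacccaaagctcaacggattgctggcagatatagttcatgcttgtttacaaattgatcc
Grifin, probe A_42_P633019: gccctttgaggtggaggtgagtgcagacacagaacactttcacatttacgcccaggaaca

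Both probes are 60 bases long. The design places the Cdkl3 probe at chr10:37554514-37557590 and the Grifin probe at chr12:14577927-14578832 of rn3. These spans of 3077 and 906 bases are longer than the probes, so the 60 bases of each lie in separate blocks of that genome. Read on the printed strand, each probe had 1 of its reading frames free of stop codons. GC content was 40.0% for Cdkl3 and 51.7% for Grifin, against a median of 43.3% over all probes and a range from 35.0% to 55.0% between their 5th and 95th percentiles. No other probe had either sequence. Which exon or untranslated region the blocks belong to was not analysed here.

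Cdkl3 was lower in both exercise pools than in the CONT pool. The log2 ratio of ME over CONT was -1.50 and -1.23 on the 2 arrays, a mean of -1.37 ± 0.19 (SD, 2 arrays), which is 61.2% lower on the linear scale. For IE over CONT the log2 ratios were -1.53 and -1.33, with a mean of -1.43 ± 0.14 (SD, 2 arrays), or 62.8% lower. These sizes depended on the background correction, with -0.67 for ME and -0.95 for IE after normexp correction and loess, and -0.87 and -0.90 after loess with no background subtraction. By the software ratios all 4 arrays lay far on the same side of 0, and the ME and IE means differed by less than the spread between the arrays of a pair. With normexp and loess the ME arrays, at -0.62 and -0.72, did not overlap the IE arrays, at -1.04 and -0.86. The scanner software's own error of the log2 ratio was between 0.24 and 0.25 on these arrays.

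Grifin was also lower in both pools. Its log2 ratio of ME over CONT was -0.82 and -0.96, with a mean of -0.89 ± 0.10 (SD, 2 arrays), or 46.1% lower. With IE the log2 ratios were -1.17 and -1.29, with a mean of -1.23 ± 0.08 (SD, 2 arrays), or 57.4% lower. With normexp and loess its means were -0.57 for ME and -0.89 for IE. The arrays of ME and IE did not overlap, those of IE being the lower.

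**Figure D1:**
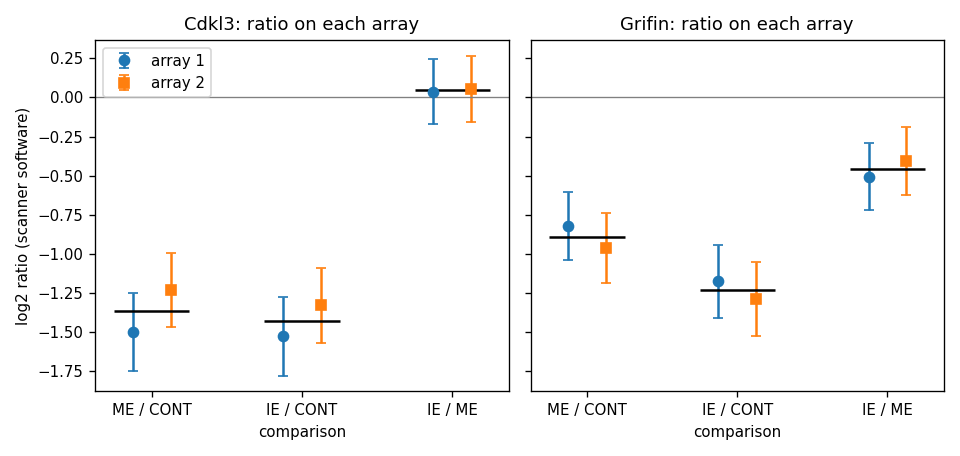
Log2 ratio of each comparison on each of its 2 arrays for Cdkl3 (left) and Grifin (right). Circles are the first array and squares the dye-swapped one, vertical bars are the error given by the scanner software, and horizontal lines are the mean of the pair. Cdkl3 lies between -1.53 and -1.23 on the 4 arrays against CONT and near 0 for IE over ME, while Grifin is below 0 on all 6 arrays.

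A probe was called when its Cy5/Cy3 ratio reached 1.5 or more on one array of a pair and 0.75 or less on the other, with a software p-value below 0.01 on both. By this rule 5 probes, 0.0122% of the 41012, were called down-regulated with ME and 2, or 0.00488%, with IE. In either direction 50 probes (0.122%) were called with ME and 12 (0.0293%) with IE. The probes called down-regulated at both intensities were 2 (0.00488%), Cdkl3 and Grifin, as the choice of the genes fixes. Grifin was the nearer of them to the limits, with ME ratios of 0.566 and 1.95 in Cy5/Cy3. Without the p threshold 4 more probes passed the ratio limits downward on all 4 arrays, those of Galnt3, Pla2g2a, Tmprss5 and RGD1306816_predicted. Their software p-values lay between 0.0369 and 0.637, and of their 8 readings each on these arrays 0, 0, 2 and 1 were well above background.

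Both genes were well above background in both dyes on all 6 arrays, with no outlier flag and no saturation. Whether a spot was located by its image was read for the 4 arrays against CONT only. Among these, on the second IE vs CONT array alone, the software did not locate the Cdkl3 spot and used the nominal position. This happened for 2.50% of the spots well above background on that array. Among the 28107 probes that were well above background in both dyes on all 4 arrays against CONT, Cdkl3 had the lowest mean ratio and Grifin the 2nd lowest in each comparison, where the median of these probes was -0.0027 with ME and 0.0019 with IE. The spots around each gene on the array stayed near 0. The spots well above background within 5 rows and 5 columns of Cdkl3 had a median log2 ratio between -0.045 and 0.012 on these 4 arrays, and those around Grifin between -0.068 and 0.034. None of these surrounding spots was as low as the member on any of the 4 arrays. With the members the lowest and 2nd lowest of such probes by mean ratio, this was nearly fixed by their choice.

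**Figure D2:**
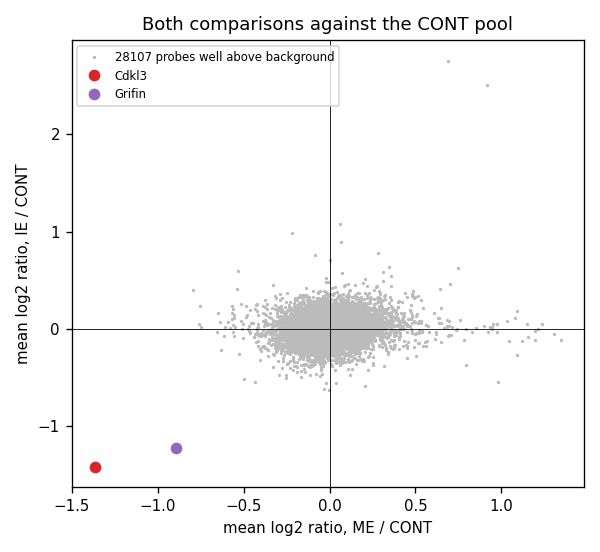
Mean log2 ratio of ME over CONT (horizontal) against IE over CONT (vertical) for the 28107 probes well above background on the 4 arrays, which share the CONT pool. Cdkl3 (-1.37, -1.43) and Grifin (-0.89, -1.23) lie at the lower left, outside the cloud of the other probes.

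On the direct arrays of IE over ME, Grifin was the lower with IE and Cdkl3 stayed near 0. Cdkl3 had log2 ratios of 0.035 and 0.054, with a mean of 0.045 ± 0.013 (SD, 2 arrays), while the software error of each was 0.21. The 2 exercise pools thus differed by less than that error. Grifin had log2 ratios of -0.51 and -0.41, with a mean of -0.46 ± 0.07 (SD, 2 arrays), or 27.1% lower with IE than with ME, and a software error of 0.22 on each array. It was not called, with a Cy5/Cy3 ratio of 1.32 on the second array and software p-values of 0.0198 and 0.0613, whereas 30 probes (0.0731%) passed the rule in either direction. Of the 25806 probes well above background on both arrays, 0.422% had a mean ratio at least as far from 0 as Grifin, and 52.9% at least as far as Cdkl3.

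The difference between the intensities can also be taken through CONT. For Grifin, IE over CONT minus ME over CONT was -0.34 on the log2 scale, against -0.46 measured directly. For Cdkl3 this difference was -0.061, against 0.045. The gap between both routes was 0.11 for Grifin and -0.11 for Cdkl3, where the median absolute gap of 24719 probes well above background on all 6 arrays was 0.058 and 74.8% and 72.0% of these probes had a smaller one. The order IE below ME for Grifin was therefore seen with and without the CONT pool. Under other background corrections the direct arrays of Grifin lay further apart. They gave -0.48 and -0.17 after normexp and loess, and -0.41 and -0.15 after loess without background subtraction.

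Because both falls were measured against 1 CONT pool, the signal of that pool was read on each array. The Cdkl3 spot gave processed signals (the software's intensity after background subtraction and dye normalisation) of 292 and 275 for CONT in Cy3 and 242 and 275 in Cy5. ME gave 103 and 103 on the same slide, and IE gave 95.5 and 109. For Grifin the CONT signals were 379.7 and 358 in Cy3 and 380.4 and 366 in Cy5. ME gave 215 and 195, and IE gave 159 and 149.9. For each gene the CONT readings did not overlap those of ME or IE on this slide in either dye, and for Grifin the ME readings lay between those of CONT and IE. The ratios that chose the genes are ratios of these same signals, so the gap between CONT and the exercise pools largely follows from the choice.

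On the arrays against CONT, the raw mean signal of Cdkl3 was 3.62 to 6.26 times the local background for CONT and 2.08 to 2.84 times for ME and IE. For Grifin it was 4.26 to 8.92 times for CONT and 2.61 to 4.62 times for ME and IE on these arrays. On the IE vs ME arrays, where raw signals are medians, it was 5.28 to 7.66 times for Cdkl3 and 4.48 to 7.05 times for Grifin in the exercise pools.

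To set readings side by side, each log2 processed signal was taken relative to the 75th percentile of its channel. On this scale the CONT level of Cdkl3 was -1.21 ± 0.095 (SD, 4 readings) and that of Grifin -0.75 ± 0.048 (SD, 4 readings). Between the array with ME and the array with IE, the CONT level of Cdkl3 moved by -0.065 in Cy3 and 0.18 in Cy5, and that of Grifin by -0.064 and -0.060. Over 24719 probes the SD of this move was 0.15 in Cy3 and 0.18 in Cy5. The CONT readings of both genes thus repeated from array to array by about the SD of other probes or less. For Cdkl3, 85.3% of these probes moved no further in Cy5 and 59.1% in Cy3. For Grifin the shares were 46.7% in Cy5 and 58.3% in Cy3. These are readings of the same RNA, so a CONT pool that itself differed from other sedentary rats and a fall with exercise cannot be told apart on these 4 arrays.

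The exercise pools were read a second time on the IE vs ME slide, where the levels of Cdkl3 were not those of the first slide. The Cdkl3 levels of ME, -2.59 and -2.62 on the arrays against CONT, were read as -0.90 and -0.94 on the other slide. Those of IE, -2.50 and -2.72 on the first slide, stood at -0.88 and -0.86 there. Relative to the 75th percentile, all 4 readings of Cdkl3 on the IE vs ME slide were above all 4 CONT readings. The mean of the exercise pools there was 0.31 above the CONT level. Relative to the channel median instead, those readings were 1.48 to 1.71 and overlapped those of CONT, 1.40 to 1.72. Unscaled processed signals were 216 to 225, below the 242 to 292 of CONT. The order of Cdkl3 across slides thus depended on the scaling. Grifin kept its place relative to the 75th percentile. Its ME levels were -1.57 and -1.67 on the first slide and -1.25 and -1.31 on the other, and its IE levels -1.99 and -2.05 against -1.74 and -1.71. By processed signal, all exercise readings of Grifin were below all of its CONT readings on both slides, with IE below ME on each slide. Raw signals, taken relative to the 75th percentile of their channel, overlapped only for ME in Cy3 on the IE vs ME slide. That level, from a median signal, was -0.51, against -0.58 to -0.47 for CONT, from mean signals. The other raw levels of Grifin were -1.28 to -0.91 for ME and -1.59 to -0.73 for IE.

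The slides were extracted with different versions of the scanner software and carry no CONT reading in common, so levels compare across them only loosely. From the first slide to the other, the mean level of the exercise pools moved by 1.71 for Cdkl3 and by 0.31 for Grifin. Over the 24719 probes the move had a median of 0.10 and an SD of 0.78, and 97.6% of them moved less far upward than Cdkl3, against 63.3% for Grifin. Among the 1908 probes whose level on the first slide was within 0.25 of that of Cdkl3, 96.2% moved less far upward than Cdkl3. The part of the slide in the fall of Cdkl3 was not tested, since no array on the IE vs ME slide carried CONT.

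**Figure D3:**
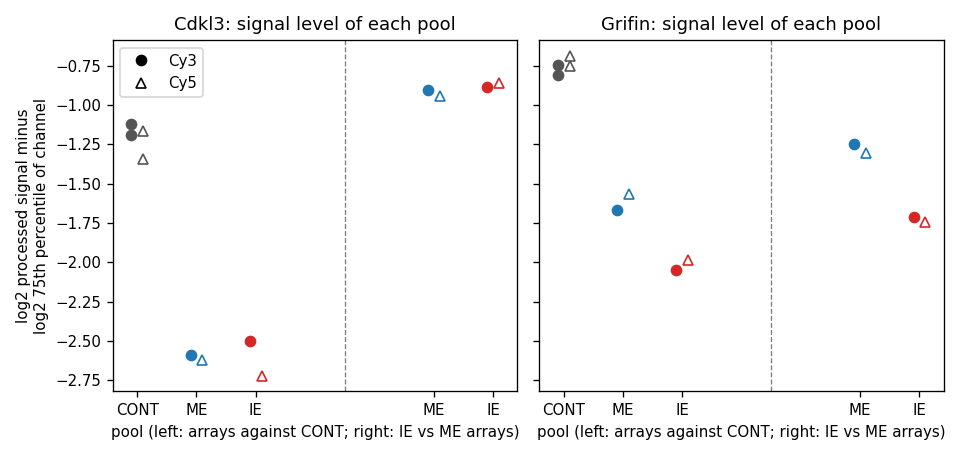
Log2 processed signal relative to the 75th percentile of its channel, for Cdkl3 (left) and Grifin (right), with 1 point per reading. Filled circles are Cy3 and open triangles Cy5, and the dashed line divides the arrays against CONT from the IE vs ME arrays. The Cdkl3 readings of ME and IE are near -2.6 on the first slide and near -0.9 on the other, above CONT, while those of Grifin stay below CONT on both slides.

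**Figure D4:**
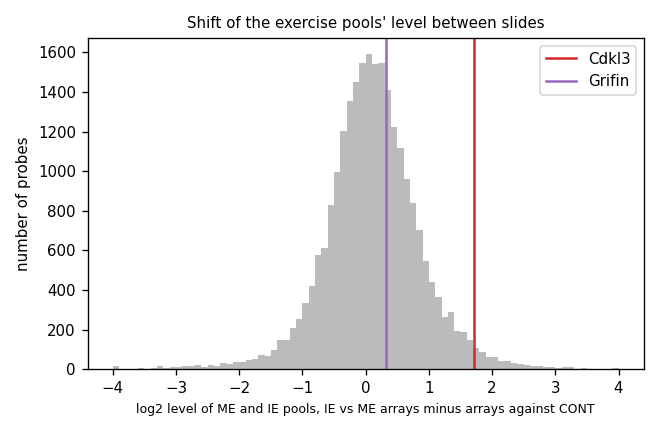
Number of probes by the change in the mean log2 level of the ME and IE pools from the arrays against CONT to the IE vs ME arrays, for 24719 probes well above background on all 6 arrays. Vertical lines mark Cdkl3 (1.71) and Grifin (0.31), and changes beyond the axis are drawn in the outermost bars.

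The other measured genes of the same families gave no calls. Over all probes, 0.122% were called with ME, 0.0293% with IE and 0.0731% between the intensities. At shares this low, the lack of a call in a list of this size says little about its genes. The same holds for the other lists and the neighbouring genes below. Of the CDKL family, Cdkl1 and Cdkl2 were measured, each by 1 probe. Their mean log2 ratios with ME were -0.040 for Cdkl1 and -0.091 for Cdkl2, and with IE 0.0044 and 0.030, and neither was called. Of 23 cyclin-dependent and related kinases 20 were measured, by 28 probes, of which 0 were called in any of the 3 comparisons. Their median log2 ratio was -0.00025 with ME and -0.021 with IE, and the 25 probes well above background lay from -0.15 to 0.16 with ME and from -0.37 to 0.07 with IE. Cdk19, a kinase of the Mediator complex, had the lowest of these, with -0.15 and -0.37, while its second probe had -0.0035 and -0.012. The probe of Mak, a kinase of the male germ line and photoreceptor cilia, had -1.35 and -0.91 but reached well above background in 0 of its 8 readings on these arrays.

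Genes of dendrite and axon growth were listed because Cdkl3 is known for a role there. Of 26 such genes 25 were measured, by 43 probes, and 0 were called in the 3 comparisons. Their medians were -0.0039 with ME and -0.0019 with IE, beside 0 for all 41012 probes in both. The widest mean ratios were those of 1 probe of Tiam1, an activator of the GTPase Rac1, with 0.15 with ME and 0.19 with IE. Ntrk2, the receptor of brain-derived neurotrophic factor, had -0.094 and -0.11 by its lower probe.

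All 12 listed galectins and related genes were measured, and of the 13 probes other than that of Grifin 0 were called. Their median was 0.0042 with ME and -0.0030 with IE. Lgals1, the galectin of many stromal and neural cells, had 0.28 with ME and -0.0030 with IE, and Lgals3, a galectin of activated microglia and macrophages, had -0.042 and 0.11. Lgals7, a galectin of stratified epithelia, had -0.15 and -0.024. The probe of Lgals12 had 0.81 with ME and 0 with IE, with 0 of its 8 readings well above background.

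Of the 23 lens fibre genes 19 were measured, and the 20 probes other than that of Grifin gave 0 calls, with a median of -0.013 with ME and 0.0095 with IE. Cryab, a small heat shock protein that glia also express, had 0.10 and 0.098. Cryaa, its partner in the lens, had 0.082 and 0.063. The lens water channel Mip had -0.016 and -0.027. Wider mean ratios with ME came from the crystallin probes of Crybb2 (-0.72), Crygb (-0.46) and Cryba2 (0.44), of which 0, 0 and 5 of 8 readings were well above background. As a check for lens tissue, the summed level of 6 probes of lens fibre markers (processed signals relative to the 75th percentile) was 1.30 to 2.15 for CONT, 1.45 to 1.54 for ME and 1.61 to 2.04 for IE on the arrays against CONT, with 5 of 6 probes well above background in each reading, and Crybb2 in none. The lens markers other than Grifin thus overlapped between CONT and both exercise pools.

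The tissue label was checked in the same way. All 17 probes of 12 hippocampal neuron markers were well above background on the arrays against CONT and 0 were called, and their summed level was 52.8 to 55.6 for CONT, 52.9 to 55.0 for ME and 53.2 to 54.8 for IE. Markers of the choroid plexus, the epithelium beside the hippocampus that makes cerebrospinal fluid, were called in part. Of its 13 probes 4 were called up-regulated with ME (Ttr, Sostdc1, Kcnj13 and Igf2) and 4 with IE (Ttr, Sostdc1, Kcnj13 and 1 of the probes of Otx2), beside 0.122% and 0.0293% of all probes called in either direction. None was called down-regulated, the other probes included values below 0, such as -0.49 for Clic6 with ME and -0.13 for Prlr with IE, and the summed level was 8.34 to 8.73 for CONT, 12.7 to 13.6 for ME and 14.4 to 14.6 for IE. The defining marker Ttr was well above background in all 8 readings, those of CONT included, as were Sostdc1, Aqp1 and Folr1. Of 7 cerebellar probes 1, of Gabra6, was called up-regulated with ME, with 2 of its 8 readings well above background, and the summed level was 2.95 to 3.15 for CONT, 3.25 to 3.29 for ME and 2.94 to 3.14 for IE. Of 6 thalamic probes 0 were called, with summed levels of 4.64 to 4.75, 5.09 to 5.13 and 4.77 to 4.80. The part of these other tissues in the lower Cdkl3 and Grifin was not tested.

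**Figure D5:**
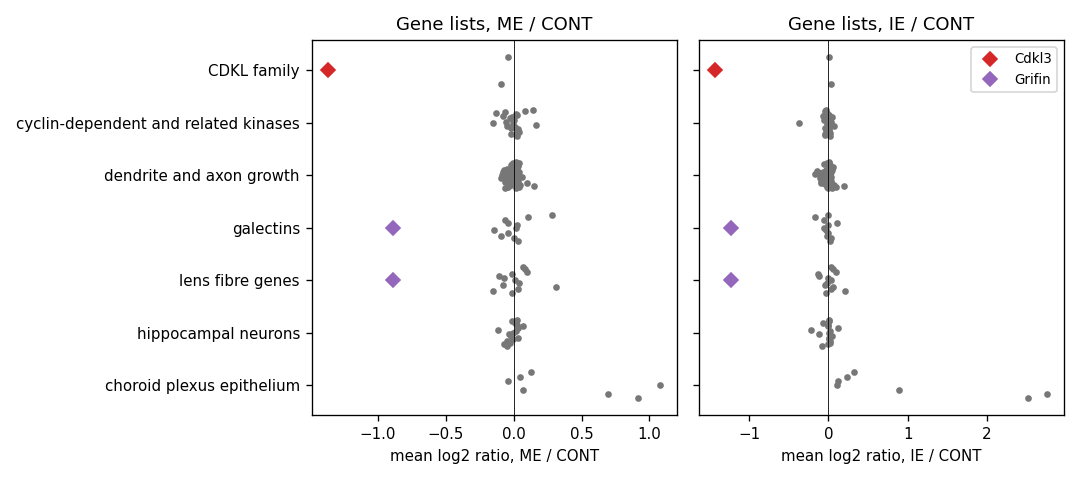
Mean log2 ratio of ME over CONT (left) and IE over CONT (right) for the probes of each gene list that were well above background on the 4 arrays against CONT. Diamonds mark Cdkl3 and Grifin and grey points the other probes, which lie between -0.37 and 0.31 outside the choroid plexus markers, where they reach 2.76 with IE.

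The neighbouring genes on the chromosome were not called either. Of the 3 genes on each side of Cdkl3 in the RefSeq order (assembly GRCr8), those measured were Cdkn2aipnl, Ube2b and Ppp2ca. Ube2b, a ubiquitin-conjugating enzyme next to Cdkl3, had a log2 ratio of -0.28 ± 0.29 (SD, 2 arrays) with ME and 0.015 ± 0.043 with IE. Both probes of Ppp2ca, the catalytic subunit of protein phosphatase 2A, lay between -0.059 and -0.021, and both of Cdkn2aipnl between 0.040 and 0.086. Beside Grifin, Lfng, a glycosyltransferase that modifies Notch, had 0.22 ± 0.06 (SD, 2 arrays) with ME and -0.14 ± 0.38 with IE. Iqce, Ttyh3 and Chst12 lay between -0.11 and 0.10. No neighbour was called with ME or IE, beside 0.122% and 0.0293% of all probes. LOC120095388, LOC134480789, LOC120095320, Kif19b and LOC120095895 matched no probe.

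The promoters of the 2 genes are shown because both genes were lower against CONT. Each runs from 250 bases before to 50 bases after the annotated start in RefSeq (GRCr8, plus strand), at chr10:36767658-36767957 for Cdkl3 and chr12:19194579-19194878 for Grifin. Capitals mark matches, on either strand, to 4 short motifs, the TATA box TATAAA, the CAAT box motif CCAAT, the GC-box core GGGCGG and the cAMP-response core TGACG.
Cdkl3: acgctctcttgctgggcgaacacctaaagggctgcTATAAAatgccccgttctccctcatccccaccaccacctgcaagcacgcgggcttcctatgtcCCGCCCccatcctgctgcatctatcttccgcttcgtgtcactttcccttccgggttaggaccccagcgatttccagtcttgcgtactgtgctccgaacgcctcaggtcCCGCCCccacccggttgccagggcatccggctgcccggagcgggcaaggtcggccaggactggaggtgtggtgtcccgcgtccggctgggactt
Grifin: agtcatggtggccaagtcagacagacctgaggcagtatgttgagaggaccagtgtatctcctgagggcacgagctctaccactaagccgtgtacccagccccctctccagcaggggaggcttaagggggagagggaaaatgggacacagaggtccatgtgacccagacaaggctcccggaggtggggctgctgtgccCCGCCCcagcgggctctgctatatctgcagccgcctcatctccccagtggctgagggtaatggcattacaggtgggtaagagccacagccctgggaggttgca

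The GC-box core GGGCGG occurred 2 times in the Cdkl3 window and 1 time in that of Grifin, and 33.1% of 33469 rat promoters of this length held it. TATAAA occurred 1 time for Cdkl3 and 0 times for Grifin, beside 14.2% of promoters. The Cdkl3 match lies near the upstream end of the window, far from the annotated start, and whether it acts as a TATA box was not tested. The CCAAT motif and the cAMP-response core TGACG occurred 0 times in either, beside 37.5% and 21.2% of promoters, and no match overlapped another motif. The Cdkl3 window held 22 CpG dinucleotides, more than 79.0% of promoters, and that of Grifin 6, beside a median of 7. The only motif of the 4 that the windows had in common was thus one that 33.1% of all promoters hold.

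The probes whose 6 ratios were most like those of each gene were sought among the 24719 probes well above background on all 6 arrays, by the root mean square difference of the log2 ratios. For Cdkl3 the nearest was Grifin, at 0.44, and for Grifin it was Cdkl3, at the same distance. The ratios against CONT, by which the pair was chosen, enter this distance, so that the pair were nearest to each other was largely fixed by the choice. Next for Cdkl3 came Lin7a, a scaffold protein of synaptic membranes, at 0.74, and the unnamed transcripts TC527629 (0.75), TC524216 (0.82) and AI101932 (0.86). For Grifin they were TC527629 (0.53), Lin7a (0.55), CB548514 (0.62) and Trhr, the receptor of thyrotropin-releasing hormone (0.65). Lin7a had a mean log2 ratio of -0.50 with ME and -0.52 with IE, and Trhr -0.17 and -0.49, and none of these probes other than the pair itself was called. A distance of 0.44 is larger than the spread between the arrays of a pair for either gene, so even the nearest patterns were not alike within that spread.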

How the data were processed

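The members and all gene lists were chosen with earlier results of these data known. The authors labelled 1 RNA pool per group with Cy3 and Cy5, hybridised G4131F arrays and extracted spot intensity values with Agilent Feature Extraction (headers: 9.5.3.1 for the arrays against CONT, 11.0.1.1 for IE vs ME), with LOWESS dye normalisation and a software p-value for each spot's ratio. The deposited log10 ratio of Cy5 over Cy3 was turned to exercise over CONT, or IE over ME, and converted to log2. The authors' value table, in log10, matched the ratio of deposited processed signals within 0.001 for 100% of spots on each array, its second arrays already turned.

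Of 45018 features, 1639 controls were left out, outlier spots were removed and spots of a probe averaged, leaving 41012 probes. Depth does not apply to arrays: their number limits precision. With 1 pool per group no test across rats was possible. Names were matched through accession (10735 probes), name (5577) or synonym (3730). Named were both members, their 5 nearest patterns, up to 4 list probes by mean ratio, 3 neighbours on each side and probes down-regulated on all 4 arrays; other named list genes were chosen after their values were seen. Alternatives were normexp (offset 50) with loess in limma 3.58.1 (R 4.3.3), loess without background subtraction, the value table, outlier spots kept, a joint least squares fit, single arrays, and other scalings of levels. The fits and the calling rule were tested on simulated data.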

Additional observations from a re-analysis of the deposited data

How the results depend on the processing

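No paired analysis was possible because a single RNA pool stood for each group and the array numbers mark only the dye orientation. The falls of Cdkl3 and Grifin against CONT kept their direction under every alternative tried for the ratios, but their size depended on the background correction. With normexp and loess the log2 ratio of Cdkl3 was -0.67 with ME and -0.95 with IE, and that of Grifin -0.57 with ME, -0.89 with IE and -0.32 on the direct arrays. With loess and no background subtraction Cdkl3 had -0.87 with ME, -0.90 with IE and 0.027 between the intensities, and Grifin -0.66, -0.88 and -0.28. Under both settings Cdkl3 remained the lowest and Grifin the 2nd lowest of the 28107 probes in each comparison against CONT. The genes were chosen from the same spots on the same arrays, so these ranks and the kept direction largely follow from the choice. The joint fit gave 0.0095 for Cdkl3 in IE vs ME. By single arrays Cdkl3 ranged from -1.50 to -1.23, from -1.53 to -1.33 and from 0.035 to 0.054, and Grifin from -0.96 to -0.82, from -1.29 to -1.17 and from -0.51 to -0.41. Without the p threshold 404, 273 and 435 probes were called for ME, for IE and between the intensities, and by 1 array alone 649 to 878, 585 to 758 and 3172 to 3226. In levels over all readings, CONT minus ME was 0.70 and CONT minus IE 1.12 for Grifin, and 0.42 and 0.67 in raw signal. For Cdkl3 these differences were 0.56 and 0.54, with 0.26 and 0.24 in raw signal and 1.40 and 1.40 on the arrays against CONT alone. They turned to -0.28 and -0.33 when the exercise readings came from the IE vs ME slide, a comparison chosen after seeing the data. The cause was not tested. Raw signals were weak, 2.08 times the local background at the lowest for Cdkl3. The part of weak signal in the size of these ratios was not tested.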
